A study of Mus musculus with 4 samples.

Results

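The JAK kinases and STAT factors are 9 of the 18193 genes that could be named on these arrays: Jak1, Jak2, Jak3, Tyk2, Stat2, Stat3, Stat5a, Stat5b and Stat6. They were taken as the probe sets that the platform annotation gives to exactly 1 of these genes, which left 20 of 34945 such probe sets, with 1 to 4 for each gene. RNA came from satellite cells, the stem cells of skeletal muscle, sorted for the surface proteoglycan syndecan-4 out of hindlimb muscle of C57BL/6J mice that carried no stated allele or treatment, and the labels name no further marker for the sort. The young group spanned ages of 3 to 6 months and the aged group 20 to 25 months. Each RNA sample pooled the cells of several animals, and 2 independent pools per age gave 4 Affymetrix arrays, called here young 1, young 2, aged 1 and aged 2.

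Cytokines and some hormones bind receptors that have no kinase of their own. A JAK kinase held on the inner tail of each receptor chain is switched on by the binding, phosphorylates the receptor, and then phosphorylates STAT proteins that dock there. Paired STATs move to the nucleus and bind DNA, and among the genes they switch on are the SOCS proteins, which shut the receptor down again. In muscle stem cells the pathway is known as the route through which interleukin 6, LIF and oncostatin M reach the nucleus.

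The deposited values, taken here as log2 with higher meaning more RNA, are centred so that the median of any probe set across the arrays is 0. They show differences between arrays and no levels, so no gene can be called more abundant than another or absent. Because of this centring, the 2 middle arrays of a probe set mirror each other in sign, and only the highest and lowest arrays are free. The array medians lay between -0.07 and 0.05. The aged pools had less RNA of mature muscle fibres. All 18 measured fibre markers were lower in both aged arrays than in both young ones, with a median log2 difference of -2.92. Of all 18193 genes, 3077 were likewise lower in both aged arrays. The satellite cell marker Pax7 was at -1.39 and -1.24 in the young arrays and at 1.08 and 0.90 in the aged ones, and Myf5 at -0.83, -0.90, 0.83 and 2.56. Cdh15, which also marks these cells, gave -0.26, 0.26, -0.34 and 0.35, with overlapping ages. The satellite cell list as a whole had 6 of 12 members higher and 6 lower in the aged mean, with a median of -0.07. Without aged replicate 2 the difference of Myf5 was 1.69 in place of 2.56. In bulk pools, fewer cells of a type and less RNA per cell cannot be told apart.

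STAT proteins act by binding short DNA letters, so promoters of the members and their targets were searched for these. Most STAT dimers favour the letters TTCNNNGAA, which read the same on both strands, and the interferon complex that contains STAT2 favours repeats of the form GAAANNGAAA, searched on both strands. In the 250 bases before the start of a gene (RefSeq, GRCm38.p6), TTCNNNGAA stood in 7.02% of all 32851 promoters, in 0 of the 11 promoters of the 9 members and in 13 of 121 promoters of the pathway genes described further on. GAAANNGAAA stood in 2.98% of all promoters, in 1 of the 11 member promoters and in 7 of the 121. The member was Stat2, whose stretch at chr10:128270256-128270305 (plus strand) is shown first. It is followed by the 3 pathway genes with a match that are named below for their differences: the interleukin 7 receptor Il7r (chr15:9529990-9530038, minus strand), the interferon target Ifit2, at one of its starts (chr19:34550444-34550481, plus strand) and the STAT6 target Chil3 (chr3:106167708-106167756, minus strand). Capitals mark the match, which is GAAANNGAAA on the other strand for Stat2 and TTCNNNGAA for the 3 pathway genes. The match of Ifit2 is thus not of the form favoured by the interferon complex. No form particular to STAT6 was searched, so the match of Chil3 cannot be read as a STAT6 site. No 2 matches overlap in these stretches.
Stat2: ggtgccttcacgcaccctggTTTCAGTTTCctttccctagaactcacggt
Il7r: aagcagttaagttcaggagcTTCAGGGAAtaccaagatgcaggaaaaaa
Ifit2: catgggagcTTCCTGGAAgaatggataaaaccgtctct
Chil3: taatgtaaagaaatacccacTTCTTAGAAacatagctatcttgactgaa
A match describes letters and shows no binding in these cells.

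Among the 9 genes only Jak1 kept the ages apart, with both aged pools above both young ones, and it was about 2-fold higher on average. No member passed the test. With limma, a linear model fitted across all genes, 0 of 9 members and 0 of 18193 genes had a Benjamini-Hochberg adjusted p under 0.05. At an unadjusted p under 0.05 there were 0 of 9 members, against 9.04% of all genes. Leaving out 1 array gave 1 such member without young replicate 1 (Jak1, higher) and 1 without aged replicate 1 (Stat5a, lower). A variance trend gave 1 (Jak1, higher), and reading each gene from its most variable probe set gave 1 higher (Jak1) and 1 lower (Stat2). Non-overlapping ages were seen in 1 of 9 members, against 36.8% of all genes. The 9 differences ran from -0.83 to 1.04 on the log2 scale with a median of 0.07, and the median over all genes was 0.05. The 95% interval of the difference included 0 for all 9. For Jak3, Stat3 and Stat5b it reached past 1 in both directions, so a change by a factor of 2 was excluded neither way. In each of the other members it reached past 1 in a single direction, so a change of that size was not excluded there. In 8 of the 9 members, all but Jak1, the gap between the 2 aged pools was larger than the difference between the ages. Counting a gap between the pools of either age, the difference between the ages was exceeded in 8 members as well, against 75.1% of all genes.

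**Figure D1:**
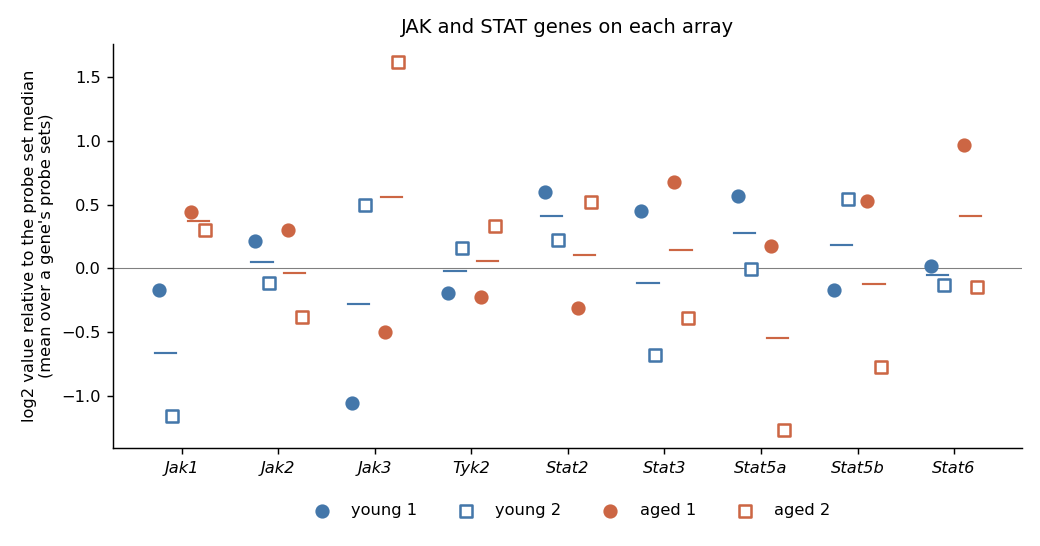
Log2 value relative to the probe set median (vertical axis, mean over a gene's probe sets) of the 9 genes on each array, with young arrays in blue, aged arrays in red, filled circles for pools numbered 1, open squares for pools numbered 2, and short lines for the mean of each age. Jak1 is the only gene of the 9 whose aged points both lie above its young points, and Jak3 has the widest spread, from -1.05 to 1.62.

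Jak1 serves most cytokine receptors, including those that share the gp130 chain, the common gamma chain receptors and the interferon receptors. As the mean of its 3 probe sets it stood at -0.17 in young 1 and -1.16 in young 2, and at 0.44 in aged 1 and 0.30 in aged 2. Young 2 was the low array, and the other 3 lay within a narrower band. The difference was 1.04 ± 0.46 (standard error, n = 2 pools per age; 95% interval -0.12 to 2.19; 2.05-fold), with an adjusted p of 0.612 from limma. Within the pools numbered 1 it was 0.61 and within those numbered 2 it was 1.46. Without young replicate 2 it was 0.54 and without young replicate 1 it was 1.53.

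The 3 probe sets of Jak1, all annotated to the same sequence entry, agreed in sign and differed in size. Probe set 1433805_at read -0.42 and -1.73 in the young arrays and 0.93 and 0.42 in the aged ones, a difference of 1.75 ± 0.60 with an unadjusted p of 0.037 and an adjusted p of 0.582 in limma over all probe sets. Without young replicate 2 it was 1.10. Probe set 1433804_at read -0.31, -0.81, 0.57 and 0.31 in the same order and differed by 1.01 ± 0.43. Both kept the ages apart. The third, 1433803_at, read 0.23 in young 1, -0.92 in young 2, -0.17 in aged 1 and 0.17 in aged 2, so its ages overlapped and its difference was 0.35 ± 0.56. Young 2 was the lowest array in all 3.

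The genes whose 4 values came closest to those of Jak1, by root mean square difference over the arrays, were Rbbp4, a histone-binding subunit of chromatin complexes (0.053), Gsn, the actin-severing protein gelsolin (0.073), and Hcst, an adaptor of activating receptors on lymphocytes (0.074). With 4 arrays such likeness is common: 140 genes lay within 0.25 of Jak1.

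Jak2, the kinase of the growth hormone, erythropoietin and prolactin receptors, had a difference near 0. It stood at 0.21 in young 1 and 0.30 in aged 1, and at -0.12 in young 2 and -0.38 in aged 2, so at both ages the pool numbered 1 was the higher one. The difference was -0.09 ± 0.42 (95% interval -1.14 to 0.96), and without 1 pool it ran from -0.43 to 0.26. Its 2 probe sets had opposite signs, 0.12 ± 0.61 for 1421065_at and -0.30 ± 0.42 for 1421066_at.

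Jak3, the kinase that works with the common gamma chain and is most abundant in lymphoid cells, had the widest spread of the 9. Its single probe set read -1.05 in young 1, 0.50 in young 2, -0.50 in aged 1 and 1.62 in aged 2. Aged 2 was far above the rest, while aged 1 lay below young 2, so the ages overlapped. The difference was 0.84 ± 0.86 (95% interval -1.31 to 2.99), and without aged replicate 2 it turned to -0.22. Lists of lymphocyte markers had higher means in the aged arrays. All 11 measured T cell markers had a higher aged mean, with a list mean of -0.68 and -0.69 in the young arrays, 1.10 in aged 1 and 0.48 in aged 2. The T cell receptor chains Cd3d, Cd3e and Cd3g differed by 4.11 ± 0.50, 0.34 ± 0.37 and 4.15 ± 0.47. All 7 B cell markers were also higher in the aged mean, with list means of -0.94 in young 1, -0.42 in young 2, 0.49 in aged 1 and 0.88 in aged 2. Ages did not overlap in 4 of the 7, against 36.8% of all genes. In the same order of arrays, Cd79a read -0.60, 0.08, 0.12 and -0.08, with overlapping ages. Cd79b read -1.24, -0.04, 0.04 and 0.65, and Ms4a1 read -1.04, -0.06, 1.64 and 0.06. Like Jak3, the B cell list and the list of general leukocyte markers were highest in aged 2. So was the satellite cell list, at -0.25, -0.19, 0.19 and 0.33 in the same order of arrays. The T cell list was highest in aged 1. The B cell and satellite cell lists were lowest in young 1, as Jak3 was, and the leukocyte list was lowest in young 2. Jak3 was higher in young 2 than in aged 1, whereas each of these lists was lower in young 2 than in aged 1. The part of lymphocyte RNA in the values of Jak3 was not tested.

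Tyk2, which pairs with JAK1 on type I interferon receptors, had the smallest difference of the 9. It stood at -0.19 and 0.16 in the young arrays and at -0.22 and 0.34 in the aged ones, so both pools numbered 2 lay above both pools numbered 1. The difference was 0.07 ± 0.41 (95% interval -0.94 to 1.09). Its 2 probe sets gave 0.08 and 0.07.

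Stat2, the STAT of the interferon complex, joined 2 probe sets whose differences had opposite signs although both are annotated to the same sequence entry. Probe set 1421911_at read 1.14 and 0.52 in the young arrays and -0.52 and -0.62 in the aged ones. It kept the ages apart and was 2.65-fold lower in aged pools (-1.41 ± 0.44, unadjusted p = 0.027, adjusted p = 0.532 with limma). Probe set 1450403_at read 0.07 and -0.07 in the young arrays, -0.09 in aged 1 and 1.66 in aged 2, a difference of 0.78 ± 0.70 that rested on aged 2 and was -0.09 without it. The first minus the second was 1.07 and 0.60 in the young arrays and -0.43 and -2.28 in the aged ones. The 2 differences lay 2.19 apart, a gap that 6.20% of the 4695 genes with 2 probe sets matched or exceeded, against a median gap of 0.60. Averaged, Stat2 stood at -0.31 ± 0.45, a value that describes neither probe set.

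Stat3, the main STAT behind interleukin 6, LIF and oncostatin M, was high in the pools numbered 1 and low in those numbered 2 at both ages. It stood at 0.45 in young 1 and 0.68 in aged 1, and at -0.68 in young 2 and -0.39 in aged 2. The difference between the ages was 0.26 ± 0.59 (95% interval -1.20 to 1.72), while pools of the same age lay 1.13 apart in young and 1.07 apart in aged mice. Without 1 pool the difference ran from -0.30 to 0.83.

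The 4 probe sets of Stat3 did not give 1 pattern. Probe set 1424272_at read -0.33 and -1.16 in young and 0.33 and 0.85 in aged arrays, a difference of 1.33 ± 0.51 (2.51-fold; unadjusted p = 0.04997, adjusted p = 0.630 with limma), and kept the ages apart. Probe set 1426587_a_at gave 0.43 ± 0.60. Probe set 1460700_at read 0.92 in aged 1 and -0.93 in aged 2, with the young arrays at -0.02 and 0.02, and its difference was -0.01 ± 0.72. Probe set 1459961_a_at ranged from 1.88 in young 1 to -1.19 in aged 2 and gave -0.71 ± 1.17. The 4 differences spanned 2.04, and 29.2% of the 1093 genes with 4 probe sets spanned as much or more.

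Stat5a and Stat5b are close relatives that carry growth hormone, prolactin and common gamma chain signals, and in the reference annotation the protein-coding genes Stat5b, Stat5a and Stat3 follow each other on chromosome 11 with no other between them. As the mean of its probe sets, each STAT5 gene had its lowest value in aged 2, which for Stat5b rested on probe set 1422102_a_at. Stat5a stood at 0.57 in young 1, close to 0 in young 2, at 0.18 in aged 1 and at -1.27 in aged 2. Its difference, the most negative of the 9, was -0.83 ± 0.59 (95% interval -2.29 to 0.63; adjusted p = 0.811 with limma), and it was -0.10 without aged replicate 2 and -1.55 without aged replicate 1. Its probe set 1421469_a_at kept the ages apart, at 0.17 and 0.52 against -0.17 and -1.87 (-1.36 ± 0.69; -0.51 without aged replicate 2, -2.22 without aged replicate 1), whereas 1450259_a_at did not keep them apart (-0.29 ± 0.74).

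Stat5b stood at -0.17 and 0.55 in the young arrays and at 0.53 and -0.77 in the aged ones. The aged arrays were further apart than the young ones, and they enclosed one of the young values. The difference was -0.31 ± 0.57 (95% interval -1.73 to 1.11), with a value of 0.70 within the pools numbered 1 and -1.32 within those numbered 2. Its 2 probe sets gave -0.24 ± 0.90 and -0.37 ± 0.50. The first, 1422102_a_at, was lowest in aged 2, at -1.45. The second, 1422103_a_at, read -0.09 in both young 1 and aged 2, 0.84 in young 2 and 0.09 in aged 1. The 2 STAT5 genes are similar in sequence, so a probe set of one may also have read the other, and their values are uncertain to that extent.

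Stat6, the STAT of interleukin 4 and interleukin 13, stood at 0.02 and -0.13 in the young arrays, 0.97 in aged 1 and -0.15 in aged 2. Aged 1 alone was high, and aged 2 lay beside the young arrays. The difference was 0.47 ± 0.49 (95% interval -0.76 to 1.69), and -0.09 without aged replicate 1. Both probe sets showed the high value in aged 1, at 0.83 and 1.11.

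**Figure D2:**
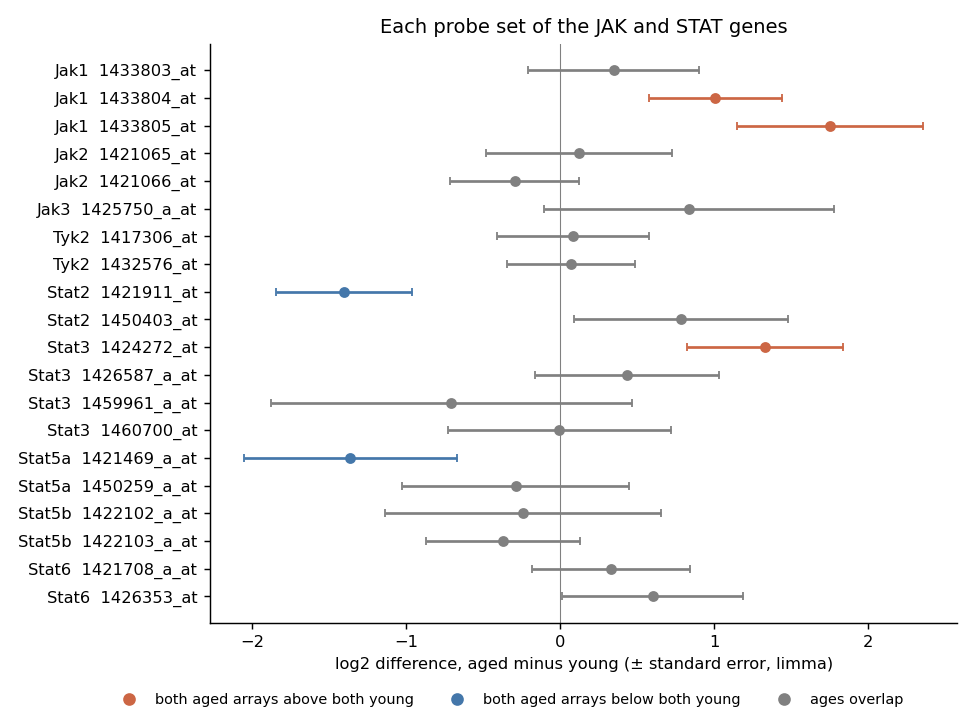
Log2 difference, aged minus young, of each of the 20 probe sets (horizontal axis; points with the standard error from limma), in red where both aged arrays lay above both young ones, in blue where both lay below, and in grey where the ages overlapped. Of the 5 coloured probe sets, 3 are red (2 of Jak1 and 1 of Stat3) and 2 are blue (1 of Stat2 and 1 of Stat5a), and Stat2 has points on both sides of 0.

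Taken probe set by probe set, the ages did not overlap in 5 of 20, against 34.6% of all 34945 probe sets. Aged was higher in 3 of them, against 18.4% of all probe sets, and lower in 2, against 16.3%. At an unadjusted p under 0.05 there were 3, where 7.94% of all probe sets had such a p. They were 2 higher ones (1433805_at of Jak1 and 1424272_at of Stat3), against 2.56% of all probe sets, and 1 lower one (1421911_at of Stat2), against 5.37%. Without aged replicate 2 these counts were 0 and 0, without aged replicate 1 they were 1 and 1, without young replicate 1 they were 2 and 0, and without young replicate 2 they were 0 and 1. The higher count was 1 in place of 2 after quantile normalization, after centring the arrays and with the replicate block. None had an adjusted p under 0.05 with limma, and neither did any of the 34945. Of the 8 members with over 1 probe set, 3 had probe sets of opposite sign (Jak2, Stat2 and Stat3) and 5 had 1 sign throughout. Opposite signs occurred in 43.9% of all genes with 2 probe sets and in 78.3% of those with 4.

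The genes around the members were counted from lists of ligands, receptor chains, inhibitors, adaptors and STAT targets. Of 118 measured genes, each counted once, 63 had a higher aged mean and 55 a lower one, with a median of 0.06. None passed the adjusted threshold in limma. With a variance trend, which does not suit centred values without levels, Socs6, described among the inhibitors, was past it. At an unadjusted p under 0.05 there were 12 higher, against 2.85% of all genes, and 6 lower, against 6.19%. After quantile normalization there were 14 higher and 6 lower, after centring the arrays 11 and 6, and with the replicate block 11 and 5. Leaving out 1 array moved both counts up or down, and the count over all genes moved too. Such a fit has a single pool at 1 age, so its counts are not compared here.

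Among ligands, 3 of 26 had such a p, all higher in aged pools, against 2.85% of all genes. Oncostatin M, Osm, a cytokine of the interleukin 6 family, read -0.75 and -0.59 in young and 0.95 and 0.59 in aged arrays (1.44 ± 0.37). The related cytokine Clcf1 read -0.47, -0.44, 0.47 and 0.79 (1.09 ± 0.37). Interleukin 6, Il6, read -0.28 and -2.26 in young and 0.28 and 2.69 in aged arrays, a difference of 2.76 ± 1.00 that was 0.57 within the pools numbered 1 and 4.95 within those numbered 2. The difference of Il6 was 1.77 without young replicate 2, and leaving out aged replicate 2 gave 1.56. The adjusted p-values of these 3 from limma ran from 0.308 to 0.485, and the ligand list as a whole had a median difference of 0.15.

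Receptor chains had differences of both signs, with a median of 0.19. At an unadjusted p under 0.05, 4 of 30 were higher, against 2.85% of all genes, and 2 were lower, against 6.19%. The lower count was near the share of all genes. Osmr, the signalling chain for oncostatin M, read -0.74 and -1.12 in young and 1.58 and 0.63 in aged arrays (2.03 ± 0.47, 4.09-fold, adjusted p = 0.256 with limma). Il7r, the interleukin 7 receptor of lymphocytes whose promoter stretch is printed above, read -1.12, -1.43, 0.47 and 0.77 (1.89 ± 0.38). Il2rb, a chain of the interleukin 2 and 15 receptors on lymphocytes, differed by 1.33 ± 0.36. These 2 stood beside the higher T cell markers, whose part was not tested. Csf2rb, the chain shared by the receptors of GM-CSF, interleukin 3 and interleukin 5 on myeloid cells, was lower (0.87 and 0.48 against -0.36 and -1.13; -1.42 ± 0.44). It stood beside lower macrophage markers, of which 9 of 11 had a lower aged mean, with list means of 0.54 and 0.27 in young and -0.74 and -0.40 in aged arrays. Adgre1, Cd68 and C1qa differed by -2.42 ± 0.36, -0.53 ± 0.82 and -2.09 ± 0.50. The part of macrophage RNA was not tested either. Pericyte and smooth muscle markers had a higher aged mean in 8 of 8 (median 1.38), and fibro-adipogenic progenitor markers in 6 of 7 (median 0.90). Endothelial markers had a higher aged mean in 2 of 8 (median -0.35). The part of RNA from such cells in Osmr and in the ligand Il6 was not tested.

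Inhibitors had a median of -0.17. At an unadjusted p under 0.05, 1 of 18 was higher, against 2.85% of all genes, and 2 were lower, against 6.19%. Socs6, a SOCS family member, read 0.92 and 1.35 in young and -1.45 and -0.70 in aged arrays (-2.21 ± 0.44, 4.63-fold lower, adjusted p = 0.196 with limma, and 0.0493 with a variance trend). Pias2, a SUMO ligase of the family named for inhibiting STATs, read 0.89, 0.61, -1.20 and -0.23 (-1.46 ± 0.46). Ptprc, the leukocyte phosphatase CD45 that can act on JAKs, was higher (-0.50 and -2.04 against 0.64 and 0.69; 1.94 ± 0.58). Its difference was 1.16 without young replicate 2. It is also a general leukocyte marker, and 6 of the 8 markers on that list had a higher aged mean (list median 1.02), with list means of -0.26 and -0.56 in young and 0.04 and 0.66 in aged arrays. The 2 lower ones were Coro1a (-0.51 ± 0.38) and Laptm5 (-0.28 ± 0.37). The part of leukocyte RNA in Ptprc was not tested. Of the 11 adaptors and partners 10 had a lower aged mean, with a median of -0.30 and none at an unadjusted p under 0.05. Those closest to it were the importin Kpna1, which carries STATs into the nucleus, and the JAK2-binding adaptor Sh2b1. Kpna1 differed by -0.98 ± 0.42 (-0.62 without young replicate 1). Sh2b1 differed by -0.66 ± 0.44 (-0.31 without aged replicate 2, -0.40 without young replicate 2 and -1.02 without aged replicate 1).

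Among known STAT3 targets 9 of 12 had a higher aged mean, with a median of 0.44. The growth regulator Myc read -0.53 and -2.17 in young and 1.45 and 0.53 in aged arrays (2.34 ± 0.66, adjusted p = 0.352 with limma; 1.53 without young replicate 2), and the NF-kappaB partner Bcl3 differed by 1.04 ± 0.41. The interleukin 6 receptor Il6ra went the other way, at 0.89 and 0.14 against -0.84 and -0.42 (-1.15 ± 0.44). Of 9 STAT5 targets 5 were higher, with a median of 0.27, and Osm was the only one at an unadjusted p under 0.05. STAT6 targets had a median of 0.62 over 10 genes. The lipoxygenase Alox15 differed by 1.39 ± 0.50 (0.90 without young replicate 1), and the macrophage lectin Chil3 by -2.44 ± 0.87, with young 1 at 3.06 and the other 3 arrays between -0.94 and 0.44. Without young replicate 1 the difference of Chil3 was -1.13.

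Targets of the STAT2-containing interferon complex showed no common direction, with 7 of 14 higher and a median of -0.01. Ifit2, an RNA-binding protein induced by interferon, read -0.89 and -1.20 in young and 1.65 and 0.89 in aged arrays (2.31 ± 0.43, 4.97-fold, adjusted p = 0.173 with limma). Oasl2, of the oligoadenylate synthetase family, was lower, at 1.46 and 0.42 against -0.46 and -0.42 (-1.39 ± 0.47; -0.87 without young replicate 1).

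**Figure D3:**
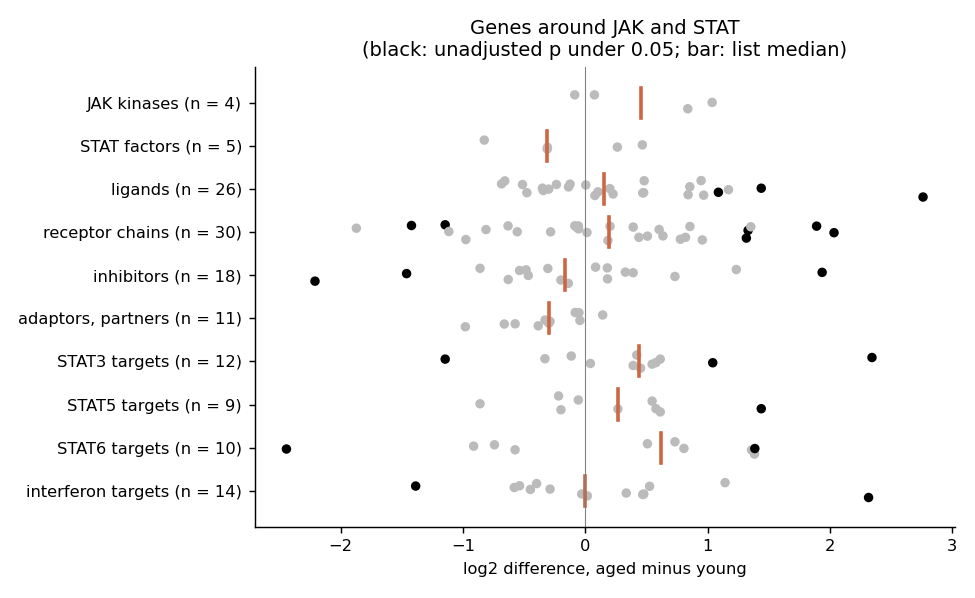
Log2 difference, aged minus young (horizontal axis), of every measured gene of the JAK and STAT families and of 8 lists around them, with black points for an unadjusted p under 0.05 in limma, grey points for the rest and a red bar for the median of each list. No JAK or STAT point is black, and the medians lie between -0.31 for the STAT factors and 0.62 for the STAT6 targets.

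**Figure D4:**
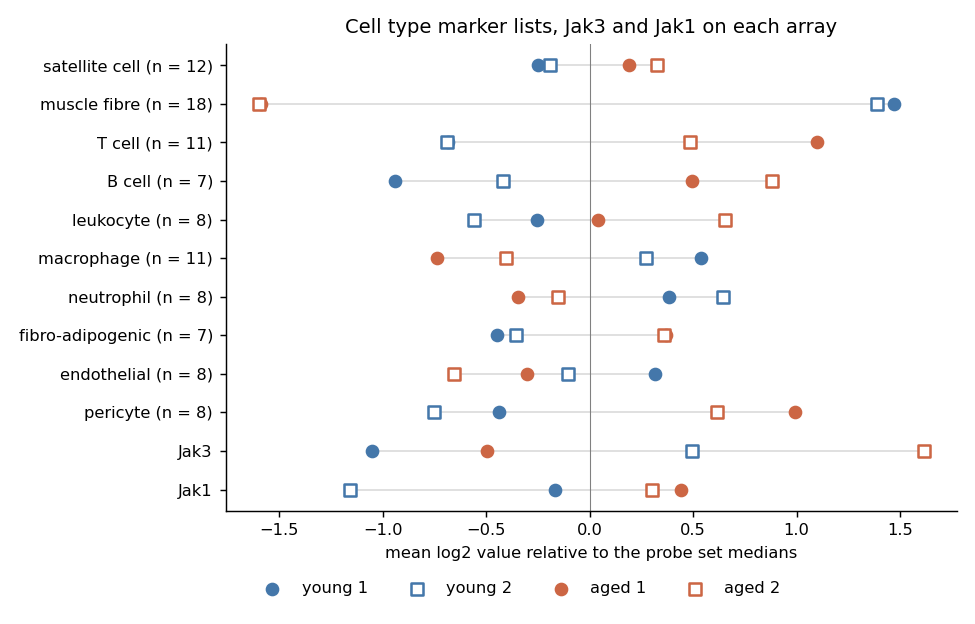
Mean log2 value relative to the probe set medians (horizontal axis) of 10 cell type marker lists, and the values of Jak3 and Jak1, on each array, with young arrays in blue, aged arrays in red, filled circles for pools numbered 1 and open squares for pools numbered 2. The fibre list lies at 1.47 and 1.39 in young and at -1.59 and -1.60 in aged arrays, whereas Jak3 is highest in aged 2 and lowest in young 1.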

How the data were processed

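The deposited table holds 45101 probe sets on 4 arrays as log2 values that the authors centred on each probe set's median (largest median 5e-07). Base 2 and the direction are assumed. How background was corrected, probes summarised and arrays normalized is not given in the sources used here. Per the labels' protocols, RNA was amplified in 2 linear T7 rounds. Symbols came from the platform annotation, updated by Entrez ID to GRCm38.p6 for 34741 probe sets. Probe sets with several symbols (932), with none (9160) and controls (64) were not tested. A gene's value is the mean of its probe sets.

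Ages were compared on the deposited values with limma 3.58.1 in R 4.3.3 (lmFit, eBayes without a variance trend, 3.56 prior and 2 residual degrees of freedom), and p-values were adjusted over all genes or all probe sets. ± is the standard error of that fit. Mice within a pool are averaged, so the p-values measure the spread between pools, and 2 arrays per age limit the precision. The code was tested on simulated data.

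Members and lists were chosen with earlier results of these data known. Pathway genes named are those with an unadjusted p under 0.05 (at most 4 per list by p, or the 2 smallest), and up to 3 first markers per list. Nearest genes were sought for the member with the smallest p. Figures used matplotlib 3.10.9. Alternatives were quantile normalization, array centring, the replicate block, a variance trend, other choices of probe set and leaving out each array.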

Additional observations from a re-analysis of the deposited data

How the results depend on the processing

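The settings were followed for 62 differences, those of 9 members, their 20 probe sets, 19 pathway genes and 14 other markers. Of these, 39 kept their sign without any 1 array and 23 turned at least once. Of the 9 members 2 kept it, as did 6 of their 20 probe sets. All 19 pathway genes kept it too, but this was fixed in advance. They were named by their p-values in these data, and in each the ages did not overlap. Leaving out 1 array could then not turn the sign, so the 19 cannot be set against the members. Among the members the same held for Jak1 and for each probe set whose ages did not overlap. In limma, 0 genes and 0 probe sets passed an adjusted p of 0.05 on the deposited values, after quantile normalization, after centring the arrays, with the replicate number as a block, and without any 1 replicate (lowest and highest count 0), whereas the variance trend called 221 genes, none of them a member. Among the genes named here it called Socs6, Pax7, Acta1, Ckm, Myh1, Cd3d, Cd3g and Adgre1. A variance trend is fitted on the mean value of each gene. After the centring that mean holds no expression level, so the setting does not suit these values and no conclusion is drawn from its calls. The member median of 0.074 was 0.024 after quantile normalization, 0.034 after centring the arrays, and ran from -0.094 to 0.26 without 1 replicate. The replicate block left every difference as it was and called no gene (1768 genes at an unadjusted p under 0.05 against 1645 without it). The labels do not say that a number marks shared mice or days. The deviations of same-numbered pools correlated at 0.138 over genes, and pools numbered 1 did not overlap those numbered 2 in 6 of 9 members, against 36.6% of all genes. With the block the adjusted p of Jak1 was 0.539 and that of Jak3 0.572.

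Signs turned for Jak2 when a gene was read from its most variable probe set (0.12), likewise for Stat3 (-0.71), with quantile normalization for 1460700_at (0.068) and Cdh15 (-0.050), and with centred arrays for Cdh15 (-0.038); the cause was not tested. Without 1 replicate the differences that turned ran from -0.43 to 0.26 for Jak2, -0.22 to 1.89 for Jak3 and its probe set 1425750_a_at, -0.21 to 0.35 for Tyk2, -0.73 to 0.10 for Stat2, -0.30 to 0.83 for Stat3, -0.96 to 0.34 for Stat5b and -0.094 to 1.03 for Stat6. Among probe sets they ran from -0.23 to 0.92 for 1433803_at, -0.40 to 0.64 for 1421065_at, -0.33 to 0.49 for 1417306_at, -0.079 to 0.22 for 1432576_at, -0.095 to 1.66 for 1450403_at, -0.082 to 0.94 for 1426587_a_at, -2.06 to 0.65 for 1459961_a_at, -0.93 to 0.92 for 1460700_at, -1.03 to 0.45 for 1450259_a_at, -1.45 to 0.96 for 1422102_a_at, -0.84 to 0.090 for 1422103_a_at, -0.16 to 0.83 for 1421708_a_at and -0.023 to 1.22 for 1426353_at. Cdh15 ran from -0.34 to 0.35 and Cd68 from -1.60 to 0.54. Stat5a (-1.55 to -0.10) kept its sign without any 1 replicate although its ages overlapped. Jak1 (0.54 to 1.53) kept its sign too, but this was fixed in advance because its ages did not overlap.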

Other observations

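A pair of probe sets carried both Jak3 and Insl3, a neighbouring hormone gene, and entered no comparison. The first, 1423021_s_at, read 0.11 in young 1, -0.01 in young 2, 0.01 in aged 1 and -0.42 in aged 2, and the second, 1427092_at, read 0.04, -0.04, -0.26 and 0.40 in the same order. The probe set of Jak3 alone was highest in aged 2, where the first of these was at its lowest and the second at its highest.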
